A study of Drosophila melanogaster with 2 samples.

Results

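Divergent promoter regions are places where the regulatory sequence of 2 genes is shared because the genes start close together on opposite strands. They were taken from the regions recovered from Drosophila melanogaster by chromatin immunoprecipitation and sequencing (ChIP-seq) of espinas (esn), a LIM-domain relative of the planar polarity protein Prickle. A region was a member when its summit, the position of highest signal, lay within 500 bases of starts of protein-coding transcripts of at least 2 genes on opposite strands, on arms 2L, 2R, 3L, 3R, 4 or X of dm6. This held for 1492 of 10918 regions (13.7%, 95% Wilson interval 13.0 to 14.3) in the authors' list kept after an irreproducible discovery rate (IDR) threshold. Members made up 32.6% of the 4577 regions with a summit within 500 bases of any coding start. Of the others, 3004 lay near the starts of 1 gene (called one-gene regions below) and 81 near several genes on 1 strand.

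The 2 samples were biological replicates of whole white prepupae of both sexes, the stage at which metamorphosis begins. All animals carried a transgene that adds green fluorescent protein (GFP) to the C-terminus of esn, and an antibody against GFP was used for precipitation. Animals without the tag were not part of the series, and control libraries were not used here, so binding by espinas cannot be told apart from other recovery of chromatin. Below, a place is called bound only in the sense that a list held a summit there. Each replicate also had its own list of 30000 regions, of which the strongest 10918 on the arms were used unless the full list is named. Signal is the authors' value for a region, and where 3 signals are given for a member they stand in the order IDR list, replicate 1 and replicate 2. A replicate's signal and rank are those of the strongest region of its full list that overlaps the member by 1 base or more. The summit of that region may lie elsewhere, and 2 members can share 1 such region. The scale of the signal is not stated, so values were compared only within a list, and the depth of the libraries is unknown. No difference between classes of regions or genes below was tested, since regions of 1 group of animals are not replicates. Intervals on shares are 95% Wilson intervals and cover counting error only.

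In a head-to-head gene pair, transcription runs outward from a common upstream stretch, which is usually depleted of nucleosomes. In flies such pairs are known to hold many broadly expressed genes with basic cell functions. The DNA replication-related element, bound by Dref, the overlapping site of the insulator protein BEAF-32, and Motif 1, bound by M1BP, are known from promoters of that kind. The GAGA factor is known instead from many developmentally regulated promoters.

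The spans between the starts of 6 gene pairs show the sequence that the summits sat in or beside. The first 3 belong to pairs among the 10 strongest, chosen to show a summit beside the span or at its centre. The other 3 hold the element TATCGATA or Motif 1 (GGTCACAC, or GTGTGACC on the opposite strand) and were chosen after their values were seen. Sequences are the plus strand of Release 6 of the genome as held by RefSeq, in dm6 coordinates, 5′ to 3′. The gene named first starts to the left and runs leftward, and none of the spans overlaps an annotated exon. Capitals mark a match to either motif, and none of the first 3 spans holds one.
Chro and Ssl1, chr3L:22878985-22879088: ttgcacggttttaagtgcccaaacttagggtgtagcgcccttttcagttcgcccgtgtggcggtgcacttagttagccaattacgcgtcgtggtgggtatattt
CG11309 and CG7632, chr3L:21304659-21304696: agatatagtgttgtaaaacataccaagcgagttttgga
Art3 and mRpS10, chr3R:15229409-15229664: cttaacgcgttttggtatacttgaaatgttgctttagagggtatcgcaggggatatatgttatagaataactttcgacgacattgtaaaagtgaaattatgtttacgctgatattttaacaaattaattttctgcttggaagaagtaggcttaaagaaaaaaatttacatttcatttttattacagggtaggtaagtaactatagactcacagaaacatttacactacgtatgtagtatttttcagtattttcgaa
fws and Lamtor3, chr2L:17481030-17481230: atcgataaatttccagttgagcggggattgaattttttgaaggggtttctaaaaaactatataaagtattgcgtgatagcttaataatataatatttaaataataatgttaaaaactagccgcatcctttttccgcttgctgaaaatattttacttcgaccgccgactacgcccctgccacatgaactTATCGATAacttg
Ripalpha and RpL7, chr2L:10200975-10201003: cccactccgcggccaGTGTGACCgtttgg
CG13690 and RpLP1, chr2L:419653-419951: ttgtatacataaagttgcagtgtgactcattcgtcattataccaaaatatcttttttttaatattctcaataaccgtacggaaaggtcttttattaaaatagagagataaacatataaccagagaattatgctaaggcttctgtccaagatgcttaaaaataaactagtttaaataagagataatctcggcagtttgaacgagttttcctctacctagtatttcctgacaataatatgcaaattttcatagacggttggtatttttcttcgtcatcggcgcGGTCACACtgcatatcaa
In the span of Art3 and mRpS10 the summit lay 127 bases from one start and 130 from the other, close to the middle. Beside the short spans of Chro and Ssl1 and of CG11309 and CG7632, it lay outside the span, 81 and 95 bases into the gene on the left. The summit of fws and Lamtor3 lay between the starts, 118 and 84 bases from them, with signals of 2692, 1561 and 1145. That of Ripalpha and RpL7 lay 25 bases inside RpL7, and that of CG13690 and RpLP1 lay 47 bases upstream of RpLP1, with weaker signals of 848, 519 and 326. Among the spans of 1270 head-to-head pairs spaced up to 300 bases, TATCGATA was present in 14.9% and GGTCACAC in 6.85%, read on both strands. The shares were 16.6% and 6.57% in the 761 bound spans and 12.4% and 7.27% in the 509 others, and their intervals overlapped.

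The members were not all separate places. They had 1492 distinct summits in 1283 runs of overlapping regions, at 1255 nearest gene pairs and 2581 genes. In 1451 members (97.3%, interval 96.3 to 98.0) the nearest starts on the 2 strands pointed away from each other, as the name divergent says. In the other 41 they faced each other, so that the 2 transcripts overlap at their starts. Of all 2720 opposite-strand gene pairs with starts within 1000 bases, bound or not, 96.2% were head-to-head (interval 95.4 to 96.8). The share in members was thus near that of the annotation. Exactly 2 genes met the rule at 1419 members and 3 or more at 73. The largest number was 10 genes, at 2 members within the mod(mdg4) locus, whose alternative exons the annotation lists as separate genes on both strands and whose transcripts are joined by trans-splicing. One of these, with pre-mod(mdg4)-E and pre-mod(mdg4)-Y nearest, had a signal of 2204, 1530 and 682. The other, with pre-mod(mdg4)-K and pre-mod(mdg4)-T nearest, was weak, with 192, 115 and 78.8.

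The strongest member lay between mRpS23, which encodes a protein of the small mitochondrial ribosomal subunit, and CenG1A, which encodes a GTPase-activating protein for Arf GTPases. Its signal was 6279 in the IDR list, where it ranked 9 among all regions, 4044 in replicate 1 and 2243 in replicate 2. The next lay at Chro, which encodes the chromatin protein Chromator, and Ssl1, a TFIIH subunit gene, with 6215, 4267 and 1985. The third lay at Pex11ab, a peroxisome gene, and CG8320, with 5785, 3992 and 1822. The order of these 3 was kept in replicate 2, while in replicate 1 Chro and Ssl1 came first. Tcs5, a gene of tRNA modification, and CHMP2B, of the membrane-remodelling ESCRT machinery, followed with 5589, 3901 and 1700. At Art3, an arginine methyltransferase gene, and mRpS10, of the mitochondrial ribosome, the values were 5351, 3749 and 1620. The F-box gene Fbw5 and CG9147 had 5153, 3398 and 1776. These 3 pairs changed places between the lists, since Fbw5 and CG9147 were above the other 2 in replicate 2 only. Next came Pdrg1 and Pal1 (4599, 3095 and 1508), CG11309 and CG7632 (4399, 2912 and 1500), and CG8372 and CG8360 (4267, 2766 and 1509). The 10 strongest places ranked between 9 and 49 in the IDR list.

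The 10 strongest summits lay at a like distance from a start. In all 10 places at least 1 start was 105 to 186 bases downstream of the summit, although spacing ran from 33 to 492 bases. In 5 of them the summit lay between the starts, and in the other 5 it lay downstream of one start and upstream of the other. Of all head-to-head members, 69.1% (interval 66.7 to 71.4) had a start 50 to 200 bases downstream, a wider range than that of the 10. Over the strongest quintile of members (ranked by signal and split into 5 equal groups), the nearest start downstream was a median of 113 bases away (quartiles 84 to 145, 297 summits with such a start). It was 96 bases (38 to 196) in the weakest quintile, with wider quartiles. In one-gene regions the strongest quintile had a median of 199 bases (133 to 298, 517 summits). Within replicate 1 the strongest quintiles gave 113 bases for members and 190 for one-gene regions, and within replicate 2 they gave 119 and 209. A summit between 2 starts has 2 chances of a near one, which lowers the distance in members by construction, and how far this accounts for the gap was not tested.

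**Figure D1:**
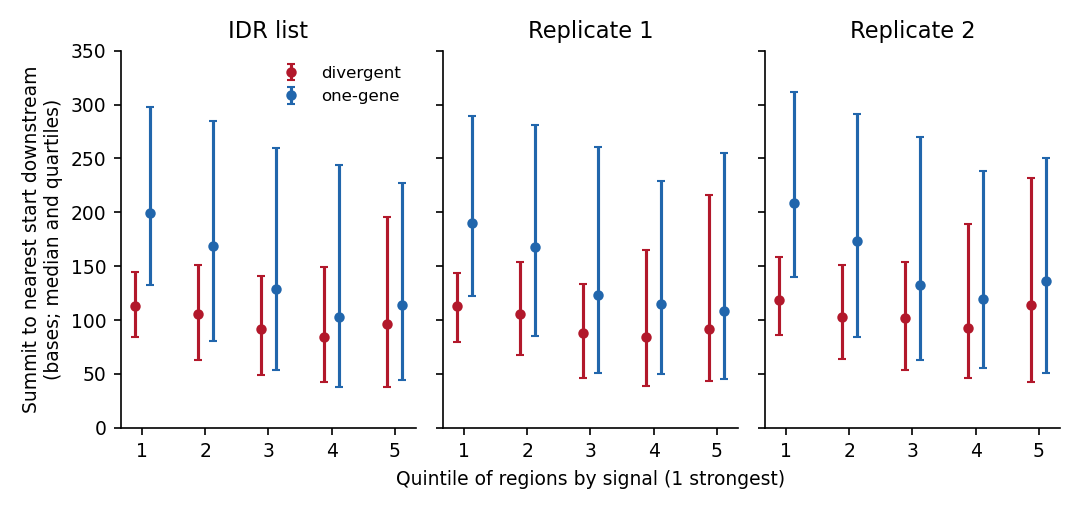
Distance from the summit to the nearest start downstream of it (bases, vertical axis) by quintile of regions ranked by signal (horizontal axis, 1 strongest), for divergent and one-gene promoter regions in the IDR list and in each replicate. Points are medians and bars run between quartiles; the strongest divergent regions have the narrowest bar (84 to 145 bases in the IDR list).

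The spacing of a pair went with where the summit sat. The median spacing of the nearest opposite starts was 284 bases (quartiles 171.5 to 391), and the rule allows at most 1000. Of head-to-head members, 78.4% (interval 76.2 to 80.5) had the summit between the starts. This share was 35.8% at spacings up to 100 bases, 62.6% at 101 to 200 and 82.7% at 201 to 300, and a wider span leaves more room for a summit. The strongest quintile of head-to-head members showed both extremes. At 201 to 300 bases, 99 of its 104 summits (95.2%, interval 89.2 to 97.9) lay between the starts, a median of 28.8 bases from the midpoint, against 78.5% (73.7 to 82.7) and 64 bases for weaker members. At up to 200 bases, 19 of 65 (29.2%, 19.6 to 41.2) lay between the starts, against 51.0% (45.4 to 56.6) of weaker members. Both contrasts had the same direction in each replicate's list, with 95.3% against 79.5% in replicate 1 and 92.3% against 79.9% in replicate 2 at 201 to 300 bases. At up to 200 bases the shares were 31.7% against 47.4% and 27.9% against 44.5%.

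**Figure D2:**
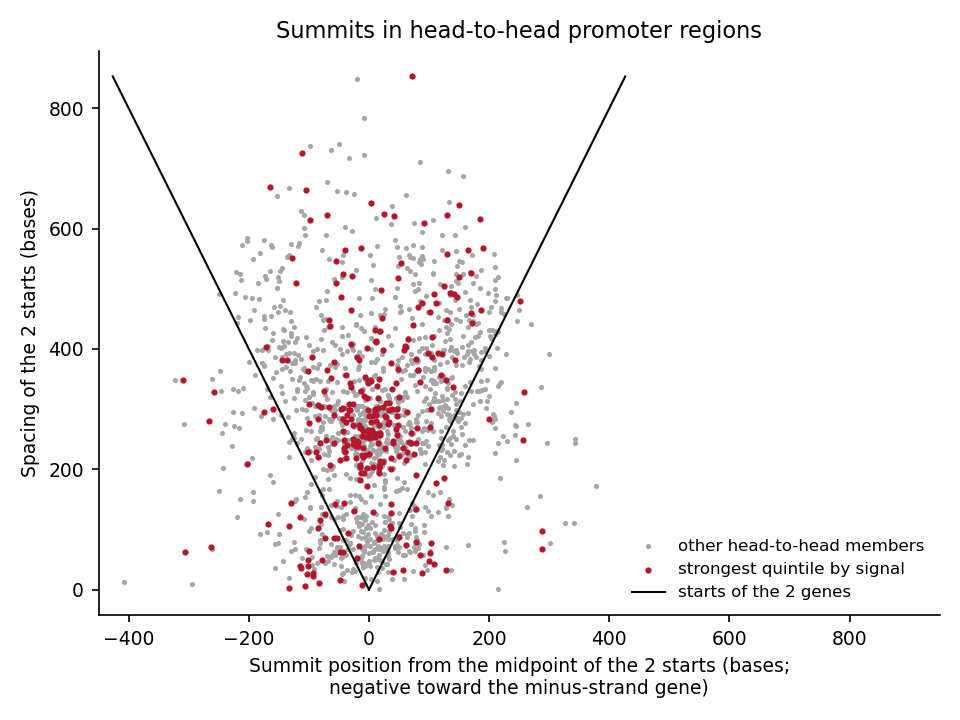
Position of the summit relative to the midpoint of the nearest opposite starts (bases, horizontal axis) against the spacing of those starts (bases, vertical axis) for the 1451 head-to-head members. The black lines are the starts; red points, the strongest quintile by signal, gather near the midpoint at spacings of 201 to 300 bases and mostly outside the lines at spacings up to 200.

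The narrowest head-to-head pairs were Atg6, an autophagy gene, with Pisd, a phosphatidylserine decarboxylase gene, 1 base apart; dpa, which encodes a subunit of the MCM replicative helicase, with didum, a class V myosin gene, 2 apart; and CG3032 with CG4593, 6 apart. The summit of dpa and didum lay 135 bases upstream of didum and 133 bases inside dpa, with signals of 1024, 732 and 296. CG3032 and CG4593 were alike, with 110 and 104 bases and signals of 968, 679 and 288. Atg6 and Pisd, whose summit lay within 17 bases of both starts, had 292, 162 and 127. The widest pairs were Jheh3, a juvenile hormone epoxide hydrolase gene, with CG43069 at 784 bases, Atg16 with Prtl99C at 849, and Cul5, a cullin gene, with Bicra at 853. Cul5 and Bicra had signals of 866, 560 and 305, while the other 2 were weak in the IDR list at 216 and 172. The regions that overlapped the member at Jheh3 and CG43069 ranked 2896 in replicate 2 and 7784 in replicate 1. Whether their summits lay at that of the member was not examined.

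Where a pair held 2 summits, these were mostly about 200 bases apart. There were 1019 pairs with 1 summit, 235 with 2 and 1 with 3. The 2 summits of a pair were a median of 205 bases apart (quartiles 201 to 221), and none was closer than 199. In 174 of the 235 pairs, one summit was nearer to each start. A gap of at least 199 bases makes this more likely by construction, and its part in the count was not tested. Median spacing was 314 bases in pairs with 2 summits and 264 in pairs with 1. Whether the caller sets this lower limit is not given in the sources used here.

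Facing members, whose transcripts overlap, were few and weaker at the median. Their median signal was 281, against 368 for head-to-head members. The strongest, chosen after their values were seen, lay at CG4741 and Adck1, a mitochondrial kinase gene, with signals of 2803, 1864 and 956. At CG31808 and Cyt-c-d, a cytochrome c gene, the values were 2131, 1362 and 786. At the first of these the summit was 111 bases upstream of Adck1 and 252 bases inside CG4741. At the second it was 128 bases upstream of CG31808.

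Signal differed between classes of regions by less than it varied within them. The median was 365 for members (quartiles 237 to 656), 307 for one-gene regions (217 to 532) and 330 for regions away from promoters (223 to 569). The ratio of members to one-gene regions was 1.19, and it was 1.21 within the list of replicate 1 and 1.17 within that of replicate 2. By spacing, the median was 301 at 0 to 100 bases, 359 at 101 to 200, 426 at 201 to 300, 405 at 301 to 400, 334 at 401 to 500 and 360 beyond. The highest medians were at 201 to 300 bases in both replicates too, 289 and 162. Quartiles overlapped between all of these groups.

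Members were found again in the separate lists as often as other regions or more. Of all members, 1325 (88.8%, interval 87.1 to 90.3) had a counterpart among the strongest regions of each replicate, against 84.1% of one-gene regions (82.7 to 85.4) and 83.2% of regions away from promoters (82.3 to 84.1). The IDR list rests on both replicates, so this describes the list and is not a separate check. The share was 99.0% in the strongest quintile of members, 90.6% in the fourth and 59.2% in the weakest, whose signals lay between 165 and 221. Only 3 members overlapped the strongest regions of neither replicate. The nearest summit in the full list lay a median of 11.5 bases away in replicate 1 and 15 bases in replicate 2. Overlap of the regions was not required for this, and choosing the nearest summit shortens the distance by construction.

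Counted from the genes, the share with a promoter summit was higher where a neighbour started close by on the other strand. Of 13945 protein-coding genes, 35.4% had a summit within 500 bases of a start. Among the 5141 genes with an opposite-strand neighbour starting within 1000 bases the share was 57.5% (interval 56.1 to 58.8), and among the 8804 without one it was 22.5% (21.6 to 23.4). Replicate 1 gave 57.1% and 22.2%, and replicate 2 gave 55.8% and 22.6%. Both genes of a pair can be counted through 1 shared summit, which raises the share in pairs by construction.

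Counted as pairs, 1357 of 2720 opposite-strand pairs (49.9%) had a summit within 500 bases of a start of both genes, and 1185 had one in the lists of both replicates. The share was not even over spacing. It was 58.8% of 420 pairs at 0 to 100 bases (interval 54.0 to 63.4), 48.6% of 354 at 101 to 200 (43.4 to 53.8), 68.6% of 529 at 201 to 300 (64.5 to 72.4) and 67.8% of 394 at 301 to 400 (63.0 to 72.2). It was 59.1% at 401 to 500 and 16.5% at 501 to 1000, where the stretch that can meet the rule narrows. The lower value at 101 to 200 bases stood below both of its neighbours in each replicate, at 49.4% and 47.2%, although in each replicate its interval overlapped that of the pairs at 0 to 100 bases. A summit within 250 bases of the midpoint of the starts, a rule that does not narrow with spacing, was found for 53.1%, 45.8%, 67.3%, 66.2% and 57.2% of pairs up to 500 bases in the same order and for 24.8% beyond.

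**Figure D3:**
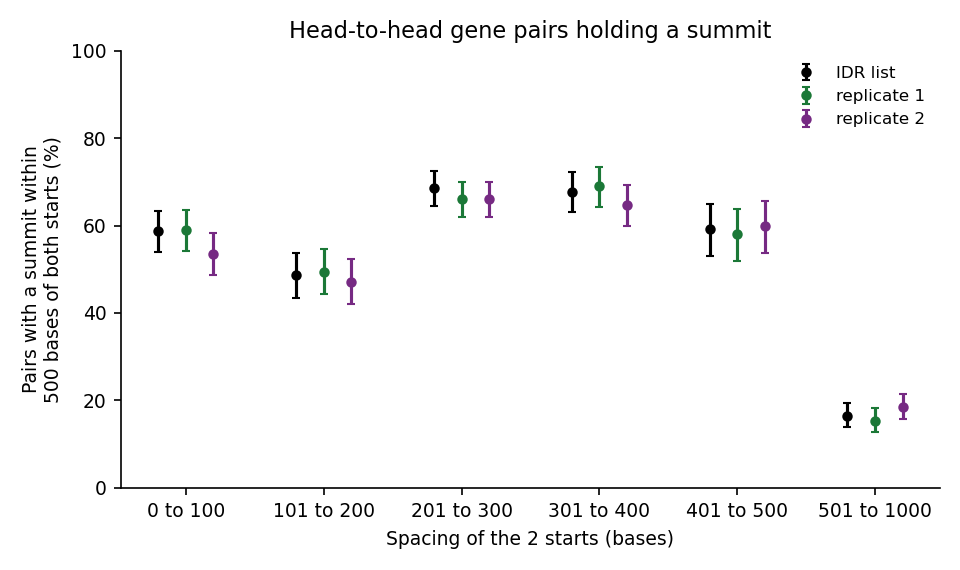
Share of head-to-head gene pairs with a summit within 500 bases of both starts (percent, vertical axis) by spacing of the starts (bases, horizontal axis), in the IDR list and in the strongest 10918 regions of each replicate. Bars are 95% Wilson intervals; the share is lower at 101 to 200 bases (48.6% in the IDR list) than at 201 to 300 (68.6%), and lowest beyond 500, where the rule narrows.

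Among the arms, 3R had the highest share of bound pairs. There, 410 of 699 pairs (58.7%, interval 55.0 to 62.2) had a summit near both starts, against 45.8% to 48.5% on 2L, 2R, 3L and X. The mod(mdg4) locus supplied 37 of the pairs on 3R, all of them bound. Without them the share on 3R was 56.3% (52.5 to 60.1), and it was 55.9% in replicate 1 and 54.1% in replicate 2. Chromosome 4 had 3 bound pairs of 11. Members made up 37.2% of promoter regions on 3R (34.4 to 40.1) and 27.1% on the X (24.1 to 30.3).

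At the limit of 500 bases, the rule admitted the summit between the neprilysin-like genes Nepl19 and Nepl20, 499 bases from the latter, with signals of 1102, 681 and 421. It also admitted that between CG6276 and ear, 500 bases from the former, with signals of 204, 214 and 131. It left out a summit 50 bases inside the chaperone gene Hsc70-4 and 501 bases from the start of tefu, with an IDR signal of 285. A summit 50 bases inside rgr and 503 bases from the start of Lnpk, with an IDR signal of 253, was also left out.

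The sequence within 100 bases of the summit was searched on both strands for short motifs. TATCGATA was present at 12.5% of members (interval 10.9 to 14.3), against 6.26% of one-gene regions (5.45 to 7.18) and 6.43% of 19607 coding starts. CGATA, the core of the BEAF-32 site and part of the former, was present at 50.3%, 35.1% and 37.2%. GGTCACAC was present at 7.17% of members (5.97 to 8.59), 4.73% of one-gene regions (4.02 to 5.55) and 5.68% of coding starts (5.37 to 6.01). Its intervals in members and coding starts overlapped. Ohler motif 7, a core promoter motif, was present at 15.7% of members (13.9 to 17.6) and 7.29% of one-gene regions (6.41 to 8.28). Ohler motif 6 was present at 2.14% and 1.13%, with overlapping intervals. The GAGA factor site GAGAG went the other way, at 14.9% of members (13.2 to 16.8), 27.4% of one-gene regions (25.8 to 29.0) and 24.9% of coding starts. The E-box form CAGCTG was present at 14.6% of members, 11.4% of one-gene regions and 13.5% of coding starts. The TATA box form TATAAA was present at 38.8%, 30.9% and 26.8%. Its share in regions away from promoters was 37.0%, near that of members. Initiator forms (TCAGTT or TCAGTC or TCATTT or TCATTC) were present at 40.5% and 43.2%, with overlapping intervals. The shares of TATCGATA, Ohler motif 7 and GAGAG in members were 12.6%, 16.2% and 15.1% in the list of replicate 1 and 12.2%, 14.3% and 15.2% in that of replicate 2. A match is a match of letters and does not show a bound factor.

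**Figure D4:**
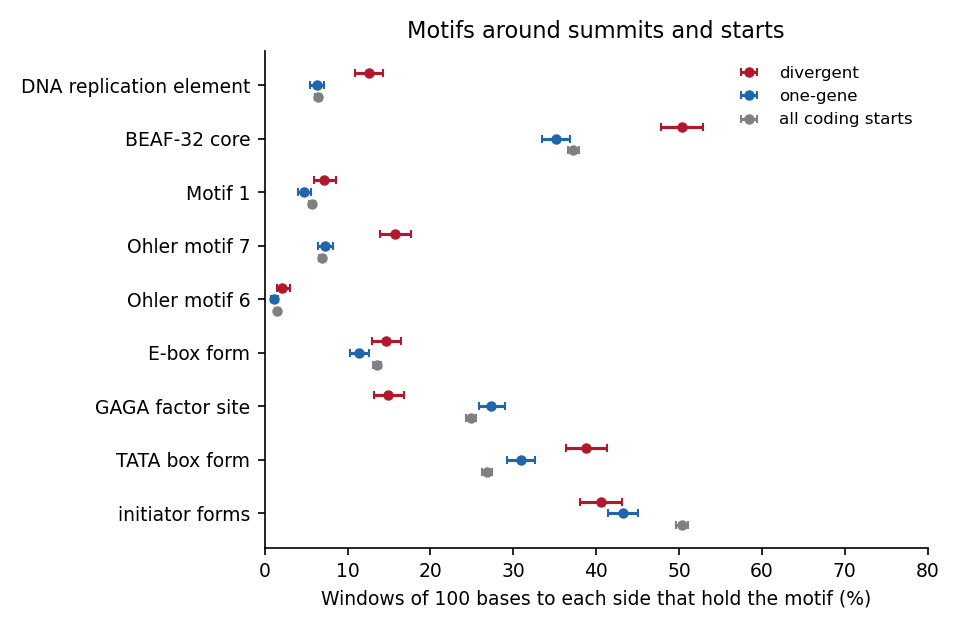
Share of windows reaching 100 bases to each side that hold a motif on either strand (percent, horizontal axis), for summits of divergent promoter regions, summits of one-gene regions and all coding starts. Bars are 95% Wilson intervals; the DNA replication element, the BEAF-32 core and Ohler motif 7 are higher in divergent regions, and the GAGA factor site is lower (14.9% against 27.4% in one-gene regions).

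Distance to a start moved with some of these shares. A start lay in 64.3% of the member windows and in 41.3% of the one-gene windows. With both classes restricted to summits within 150 bases of a start, TATCGATA was present at 14.2% of members (interval 12.3 to 16.2) and 10.1% of one-gene regions (8.74 to 11.7). Ohler motif 7 was at 17.6% (15.6 to 19.8) and 10.9% (9.43 to 12.5), and GAGAG at 15.3% (13.5 to 17.4) and 27.5% (25.3 to 29.7). GGTCACAC was at 7.82% and 8.02%, so its higher share over all members was not seen within this limit. CAGCTG was at 16.2% (14.3 to 18.3) and 14.8% (13.2 to 16.6), with overlapping intervals, and TATAAA at 37.3% and 26.2%. Distances below the limit were not matched between the classes, and 12.7% of all member windows held starts of both strands. The mean G+C content was 35.3% ± 6.81 in members (SD over 1492 windows), 38.5% ± 8.50 in one-gene regions and 42.3% ± 7.78 at coding starts. In regions away from promoters it was 34.7% ± 6.67, near that of members. Around the midpoints of the head-to-head pairs described below, it was 33.1% ± 7.75 in bound pairs and 35.9% ± 8.53 in others. Low G+C content was therefore not particular to members. The part of base composition in these shares was not tested.

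Some of these motifs differed in share between bound and unbound head-to-head pairs, and others did not beyond their intervals. Within 100 bases of the midpoint of pairs spaced up to 500 bases, TATCGATA was present in 11.9% of 1201 bound pairs (interval 10.2 to 13.9) and 9.56% of 753 others (7.66 to 11.9). GAGAG was present in 14.0% and 15.4%, again with overlapping intervals. The low share of GAGAG was therefore also found at pairs with no summit. Ohler motif 7 was present in 11.7% of bound pairs (9.96 to 13.6) and 5.31% of others (3.93 to 7.15). Within this window GGTCACAC had the opposite order, with 5.50% of bound pairs (4.34 to 6.93) and 9.69% of others (7.78 to 12.0). Initiator forms were also in a lower share of bound pairs, 43.3% (40.5 to 46.1), than of others, 51.0% (47.4 to 54.6). The window has a fixed width and reaches the paired starts only in narrow pairs. Spacing was not matched between bound and other pairs, and its part in these shares was not tested. In whole spans of pairs spaced up to 300 bases, GGTCACAC was present in 6.57% of bound pairs and 7.27% of others, with overlapping intervals.

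Within members, 3 of the motifs lay close to a start, at positions that overlapped. TATCGATA lay a median of 23.5 bases upstream of the nearer start (quartiles 3.5 to 44.5). The median was 14.5 for Motif 1 (-6.5 to 35.5) and 13 for Ohler motif 7 (-8.5 to 38), where negative values lie downstream of the start. Where only 1 orientation was present, Motif 1 ran in the direction of the gene that started nearer to it in 76 of 104 members (73.1%, interval 63.8 to 80.7), and Ohler motif 7 in 168 of 212 (79.2%, 73.3 to 84.2). TATCGATA reads the same on both strands. Its share was 18.3% of members spaced 1 to 200 bases (67 of 367), 11.5% at 201 to 400 and 9.28% beyond. The window of 100 bases to each side of the summit holds less sequence near starts in wide pairs. At spacings of 501 to 1000 bases the summit lay a median of 188 bases upstream of the nearer start. How far this accounts for the lower shares was not tested. Members with TATCGATA had a lower median signal than those without, 301 against 379, as did members with GGTCACAC, 264 against 379. In the replicates the medians were 217 against 277 and 130 against 159 for TATCGATA, and 177 against 275 and 108 against 154 for GGTCACAC. For Ohler motif 7 the medians were 369 against 362 in the IDR list and the order was opposite in both replicates, at 255 against 274 and 139 against 153.

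The genes at members were grouped by 14 lists. Of all protein-coding genes, 18.5% lay at a member and 36.9% had an opposite-strand neighbour within 1000 bases, without which a gene can lie at no member. Of the 5141 genes with such a neighbour, 50.2% lay at a member. Of the lists, 10 had a share above 18.5%. Lists differ in how often their genes are paired, so the share among paired genes is given beside the share of the whole list.

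**Figure D5:**
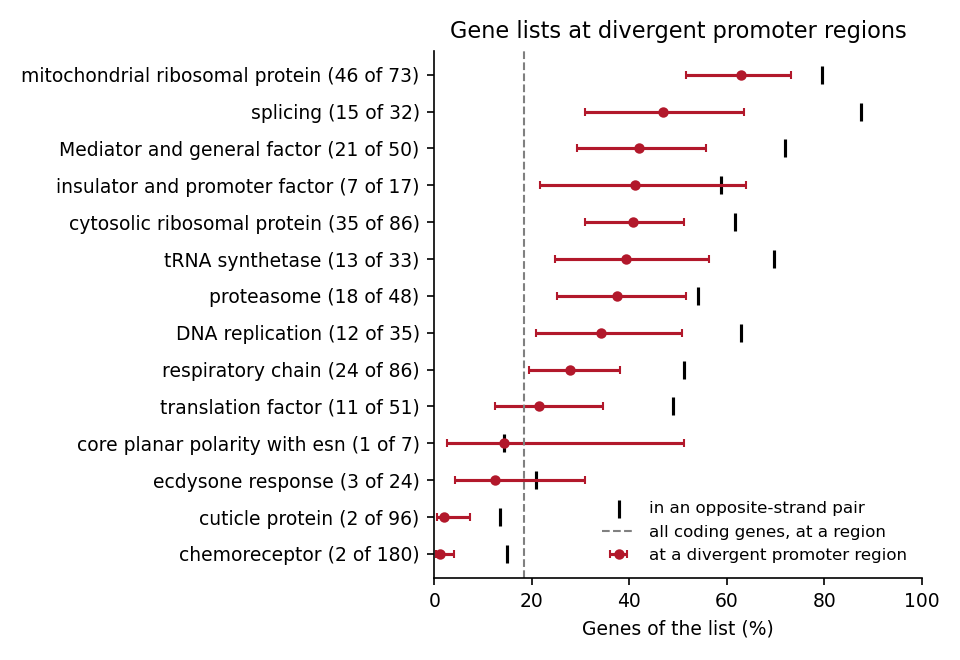
Share of each list's genes at a divergent promoter region (percent, red points with 95% Wilson intervals) and share of its genes in an opposite-strand pair (black ticks). The dashed line is the share of all protein-coding genes at such a region (18.5%); mitochondrial ribosomal protein genes stand highest at 63.0% and chemoreceptor genes lowest at 1.11%.

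Mitochondrial ribosomal protein genes had the highest share. Of 73, 46 lay at a member (63.0%, interval 51.5 to 73.2), and 58 had an opposite-strand neighbour, so that 79.3% of the paired genes were at a member (67.2 to 87.7). The count was 46 in replicate 1 and 42 in replicate 2. Besides mRpS23 and mRpS10, the strongest was mRpL23 with CG9004, with signals of 3922, 2675 and 1253. In no place did both genes of the pair belong to the list. A promoter summit of any kind was found at 51 of the 73 genes (69.9%), against 35.4% of all protein-coding genes.

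Of 86 cytosolic ribosomal protein genes, 35 lay at a member (40.7%, interval 30.9 to 51.3), also 35 in each replicate. Of the 53 with an opposite-strand neighbour this was 66.0% (52.6 to 77.3). A promoter summit of any kind was found at 73 of the 86 genes (84.9%), against 35.4% of all protein-coding genes. Summits were thus common at these genes outside members too. The strongest member was at RpS27 with the nucleoporin gene Nup37, with 2090, 1587 and 515. Ripalpha and RpL7 had 2040, 1440 and 596, and RpL32 with CG7943 had 1860, 1342 and 529. All 3 ranked lower among the regions of replicate 2 than among those of replicate 1, for RpS27 653 against 178. The summit lay nearer to the ribosomal gene than to its partner in 33 of 36 places (91.7%, interval 78.2 to 97.1), a median of 39.5 bases upstream of its start and 238.5 bases upstream of the partner's. The same held for 32 of 35 places in replicate 1 and 30 of 34 in replicate 2. In 47 one-gene regions of the list the summit was a median of 22 bases upstream, so the short distance was found there too. At mitochondrial ribosomal genes the summit was nearer to the listed gene in 17 of 46 places (37.0%, 24.5 to 51.4), 137 bases from its start and 119.5 from the partner's at the median.

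Of the other lists of basic cell functions, 4 had shares between 37.5% and 46.9%. Splicing genes had 15 of 32 (46.9%), led by Sf3b6 with the nuclear import gene Tnpo (927, 558 and 368). U2af50, of the factor that recognises the 3′ splice site, with PIG-Q (755, 352 and 391) and Prp31 with the mismatch repair gene Msh6 (599, 403 and 182) followed. Of the 32 genes, 28 had a neighbour, and 53.6% of these were at a member, near the 50.2% of all paired genes. Mediator and general transcription factor genes had 21 of 50 (42.0%), or 58.3% of the 36 paired genes (42.2 to 72.9), led by MED30 with the translesion polymerase gene Rev1 (1851, 1273 and 586). MED27 with elm had 1430, 985 and 445, and the TFIID subunit gene Taf5 with the peroxisome gene Pex6 had 964, 425 and 525. Of these, Taf5 and Pex6 ranked higher in replicate 2 than in replicate 1, 634 against 2175. The TFIID subunit genes Taf10b and Taf10 shared 1 member, 45 bases apart, which was weak at 267, 144 and 119. Aminoacyl-tRNA synthetase genes had 13 of 33 (39.4%), or 56.5% of the 23 paired genes (36.8 to 74.4), led by SerRS with CG17260 (1700, 1217 and 480), GluProRS with the clathrin adaptor gene AP-1sigma (1236, 845 and 397) and IleRS with the WAVE complex gene Hem (1177, 678 and 505). Proteasome genes had 18 of 48 (37.5%), led by Rpn5 with the histone acetyltransferase gene Hat1 (1195, 883 and 314), Rpn3 with l(2)37Bb (1096, 725 and 370) and Rpt5 with RanBP3 (610, 410 and 205), and 69.2% of their 26 paired genes were at a member.

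DNA replication genes had 12 of 35 (34.3%, interval 20.8 to 50.8), or 54.5% of the 22 paired genes (34.7 to 73.1). The strongest was PolD2, a DNA polymerase delta subunit gene, with CG13933 (1774, 957 and 828). RnrS, a ribonucleotide reductase subunit gene, with CG34231 had 916, 516 and 413. RPA1, of the single-strand binding protein, and Mcm2, of the replicative helicase, start 519 bases apart and shared 1 member with 821, 516 and 314. Respiratory chain genes had 24 of 86 (27.9%, 19.5 to 38.2), or 54.5% of the 44 paired genes (40.1 to 68.3), led by ND-ASHI of complex I with the fumarase gene Fum1 (1948, 1295 and 650). The complex I genes ND-MWFE, with the peptidase gene TppII (1183, 862 and 309), and ND-42, with the haem lyase gene Cchl (919, 585 and 343), followed. Translation factor genes had 11 of 51 (21.6%, 12.5 to 34.6), close to the share of all genes, and 44.0% of the 25 paired genes (26.7 to 62.9). Of the lists described to here, the 2 ribosomal ones had an interval among paired genes above the 50.2% of all paired genes, and the intervals of the others, the proteasome list included, held that value. Among them eIF4EHP, which encodes a cap-binding repressor of translation, with CG18428 had 2154, 1013 and 1145 and ranked higher in replicate 2 than in replicate 1, 84 against 498. eIF3h with senju had 1211, 826 and 375, and eIF1 with the ribosomal protein gene RpL28 had 1198, 880 and 314.

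Genes for insulator and promoter-binding proteins were themselves among the genes at members, 7 of 17 (41.2%, interval 21.6 to 64.0) and 7 of the 10 paired genes (interval 39.7 to 89.2). Beside Chro, Cp190, which encodes an insulator cofactor, and CG4338 had signals of 2304, 1453 and 862. Dref, which encodes the factor that binds TATCGATA, shared a member with RpL13, 84 bases apart, with 1135, 746 and 377.

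The lists of regulated or tissue-restricted genes had low counts at members, and few of their genes are paired. Of 24 genes of the ecdysone response, 3 lay at a member (12.5%, interval 4.34 to 31.0), although 19 had a promoter summit of some kind. Only 5 of the 24 had an opposite-strand neighbour, and 3 of these 5 were at a member (60.0%, 23.1 to 88.2), not below the share of all paired genes. The 3 were the nuclear receptor gene Hr3 with the histidine decarboxylase gene Hdc (1714, 1090 and 617), usp, which encodes the partner of the ecdysone receptor, with CG4313 (687, 467 and 213), and the coactivator gene tai with CG9586 (520, 227 and 299). Only at tai was the rank higher in replicate 2 (1706) than in replicate 1 (4968). Of 7 core planar polarity genes including esn, only dgo had an opposite-strand neighbour, the proteasome gene Prosbeta5, 94 bases away. The member there was weak, with 223, 145 and 56.2, and was not among the strongest 10918 regions of replicate 2. Vang, pk, stan and esn had a promoter summit but no member, and fz and dsh had neither. Of 96 cuticle protein genes, 13 were paired and 2 lay at a member (2.08% of all, 0.573 to 7.28, and 15.4% of the paired, 4.33 to 42.2), Cpr73D with Ogdh (266, 186 and 88.1) and Lcp9 with CG3594 (198, 127 and 67.3). Of 180 chemoreceptor genes, 2 did (1.11%, 0.305 to 3.96), Ir60e with CG13585 (493, 363 and 117) and Gr63a, of the carbon dioxide receptor, with Lamtor4 (309, 214 and 84.8). Chemoreceptor genes with an opposite-strand neighbour numbered 27, so 7.41% (2.06 to 23.4) of the paired genes were at a member.

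Places with 3 or more genes were led by the mod(mdg4) member described above. The next was at Pax, which encodes the focal adhesion protein paxillin, Alp12, an alkaline phosphatase gene, and CG13085, with signals of 1849, 1140 and 715. The third lay at PIG-M, of glycosylphosphatidylinositol synthesis, the transcription repressor gene NC2alpha and 3 further annotated genes, with 1429, 971 and 459. In replicate 1 the 3 stood in the same order, while in replicate 2 the member at Pax (rank 323) stood above that at mod(mdg4) (rank 362).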

How the data were processed

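Each replicate's regions and the list kept after an irreproducible discovery rate threshold were used as deposited on dm6, per the deposited file descriptions. The signal of each region is the authors' value with no stated scale. What caller made the lists, and at which threshold, is not given in the sources used here. Summits were taken from each region's start and deposited offset. Starts came from protein-coding transcripts of Ensembl release 115 (BDGP6.54). RefSeq's copy of Release 6 gave the sequence. Replicates were compared by overlap of 1 base or more. The classification was checked on simulated regions. Calculations used Python 3.11.15 with numpy 2.4.6, pandas 2.3.3 and scipy 1.17.1, and matplotlib 3.10.9.

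The members, lists, motifs and comparisons were chosen with earlier results of these data known. Genes were named if at the 10 strongest places, the strongest 3 places of a list, places with both genes in 1 list, the strongest 3 with several genes, the 3 narrowest and 3 widest pairs, the 500-base limit or the planar polarity list. One of the 10 strongest places is not reported here by name. The facing pairs, the second mod(mdg4) member and the lower 3 printed sequences were chosen after their values were seen, as was leaving mod(mdg4) out of the pairs. The replicates may differ for technical reasons, since the labels do not say how the animals were raised. Alternatives replaced the list, the distance, the window or the starts, or kept 1 summit per run.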

Additional observations from a re-analysis of the deposited data

How the results depend on the processing

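Leaving out a replicate used the list of the other. The lowest and highest values were then 13.2% and 13.4% for members among regions, 97.3% and 97.7% head-to-head, 281 and 287 bases of spacing, 76.8% and 77.0% with the summit between the starts, 1.17 and 1.21 for the signal ratio, 89.2% and 93.0% for overlap with the strongest regions, 48.5% and 49.3% of pairs, 34.8% and 35.8% G+C, 12.2% and 12.6% with TATCGATA, 7.24% and 7.71% with GGTCACAC, and 9 and 10 lists above the background. In the strongest 5459 regions the values were 15.2%, 98.2% head-to-head, 82.8% between the starts, a ratio of 1.08, 98.7% overlap, 30.6% of pairs, 34.0% G+C, 10% with TATCGATA and 3.98% with GGTCACAC. With a limit of 250 bases, members were 7.89% of regions, spacing was 227 bases, the ratio was 1.35 and 33.6% of pairs were bound. With 1000 bases these were 17.4%, 316, 1.12 and 59.9%, with 75.6% between the starts. With 1 summit per run of overlapping regions, members were 12.9%, spacing 277, 80.7% between the starts and the ratio 1.26. With the most 5′ start of each gene, members were 12.6%, 95.3% head-to-head, spacing 273, 74.4% between the starts and the ratio 1.22. Windows of 50 and 250 bases gave 6.97% and 23.3% with TATCGATA and 3.89% and 16.8% with GGTCACAC, and 250 bases gave 38.0% G+C. A narrower window holds fewer motifs, and fewer regions or a shorter limit leave fewer bound pairs, by construction. Members taken from a replicate's own list always overlap that list, so their overlap share depends on the other list only. The strongest 5459 regions leave out the weakest quintile of members, whose overlap was 59.2%. The cause of the other shifts was not tested. Of the recomputed values, 52 stayed within the spread and 33 did not. Pairs without mod(mdg4) (49.2%) were an alternative added after seeing the data. No paired analysis was possible because there was 1 group. Depth limits could not be set, since the files give no counts.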
